A study of Homo sapiens with 20 samples.

Results

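The HLA class II genes encode the surface molecules with which antigen-presenting cells show peptides to CD4+ T cells, and CIITA is the coactivator that switches them on. The genes described here are HLA-DRA, HLA-DPA1, HLA-DPB1, HLA-DMA, HLA-DMB, HLA-DOA, CD74 and CIITA. They were measured by every probe set whose platform annotation names only 1 of them, dim probe sets included. These are 16 probe sets of 8 genes, among 22215 probe sets that are not controls. HLA-DRA had 2 of them, HLA-DPA1 had 3, HLA-DOA had 4, CIITA had 3, and HLA-DPB1, HLA-DMA, HLA-DMB and CD74 had 1 each.

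The study measured RNA of 10 human cell lines of T-cell acute lymphoblastic leukemia (T-ALL), a cancer of immature T cells, on 20 Affymetrix arrays. The series' text states that all of them have activating mutations of NOTCH1. Each line gave 1 array after the vehicle DMSO (0 nM of inhibitor) and 1 after 100 nM of CompE, both at 72 h. CompE inhibits gamma-secretase, the protease that releases the active part of NOTCH1, and the question was what changes when NOTCH1 signalling is blocked. The lines are named KOPTK1, HPB-ALL, RPMI8402, DND41, PF382, CUTLL1, P12-ICHIKAWA, MOLT3, ALL-SIL and CCRF-CEM. Their CompE labels spell PF-382 and RPMI-8402 with hyphens. Growth medium was RPMI 1640 by 17 of the labels, and RPMI 8402 by the DMSO labels of MOLT3, CCRF-CEM and P12-ICHIKAWA. The latter is the name of a cell line, so an entry error is possible, and the medium cannot be told apart from the treatment in those 3 lines. No label says that arrays came from separate cultures. The p-values weigh the mean change against the spread of the changes among 10 established lines, each with 1 array per treatment.

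A class II molecule on the cell surface is a pair of an alpha and a beta chain, such as those of HLA-DR and HLA-DP. CD74, the invariant chain, fills the groove of new molecules until HLA-DM exchanges its remnant for a peptide, and HLA-DO restrains HLA-DM. CIITA does not bind DNA itself but docks on factors bound to the X and Y boxes of class II promoters, namely RFX, CREB and NF-Y. B cells and dendritic cells make class II molecules all the time, whereas human T cells make them after activation.

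The X and Y boxes lie just upstream of the start of transcription, and the promoters of the genes whose values are compared here are printed for that reason. RefSeq entries (build GRCh38.p14) matched 6 of the 8 genes. Not printed are HLA-DRA and CIITA. Each sequence runs 5′ to 3′ on the gene's strand from base -140 to base -15 before the start, 126 bases. Capitals mark matches, on either strand, to CCNAGNNAC, a form of the start of the X box, and to ATTGG, the core of the Y box, which reads CCAAT on the other strand.
HLA-DPA1: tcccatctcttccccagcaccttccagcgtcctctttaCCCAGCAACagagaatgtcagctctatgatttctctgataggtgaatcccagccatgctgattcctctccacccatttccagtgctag
HLA-DPB1: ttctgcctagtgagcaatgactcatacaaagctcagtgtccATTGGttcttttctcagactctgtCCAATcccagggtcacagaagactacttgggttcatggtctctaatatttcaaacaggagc
HLA-DMA: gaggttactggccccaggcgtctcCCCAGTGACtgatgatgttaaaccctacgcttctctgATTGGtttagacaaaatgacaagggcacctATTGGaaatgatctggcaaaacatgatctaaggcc
HLA-DMB: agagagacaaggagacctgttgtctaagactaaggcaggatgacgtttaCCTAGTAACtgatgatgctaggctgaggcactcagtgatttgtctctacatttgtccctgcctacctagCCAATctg
HLA-DOA: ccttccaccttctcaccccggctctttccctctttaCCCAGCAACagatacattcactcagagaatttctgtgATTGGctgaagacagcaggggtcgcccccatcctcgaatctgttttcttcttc
CD74: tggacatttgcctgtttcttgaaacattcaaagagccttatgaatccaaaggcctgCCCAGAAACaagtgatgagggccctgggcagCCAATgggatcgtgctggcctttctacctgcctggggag

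The sequences lie at chr6:33073664-33073789 (minus strand, HLA-DPA1), chr6:33075850-33075975 (plus strand, HLA-DPB1) and chr6:32953112-32953237 (minus strand, HLA-DMA). Those of HLA-DMB, HLA-DOA and CD74 lie on minus strands at chr6:32941043-32941168, chr6:33009606-33009731 and chr5:150412925-150413050. HLA-DPA1 has a further start in the table, at base 33080748, whose promoter holds neither motif. The start shown, at base 33073649, was chosen because it holds one, and it lies 2341 bases from the start of HLA-DPB1 on the opposite strand. Both motifs were written down after these sequences had been seen.

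Within 300 bases around the start, CCNAGNNAC occurred in 5 of the 7 promoters of these genes and in 16.5% of the 35116 promoters in the table. ATTGG occurred in 5 of the 7 and in 34.6% of all, and both motifs occurred together in 4 of the 7 and in 5.57% of all. The 7 include both starts of HLA-DPA1. Because the motifs were written down with these sequences seen, the shares cannot show enrichment. HLA-DMA, HLA-DMB, HLA-DOA and CD74 held both. In HLA-DOA and in the HLA-DPA1 start shown, the X-like match read the same 9 bases, cccagcaac, at -104 to -96 and at -102 to -94. HLA-DPB1 held ATTGG matches only, at -99 to -95 and at -75 to -71. The bases cctagtgag in its printed sequence differ from CCNAGNNAC in the last base only and were not counted. The matches did not overlap each other. A match describes letters and not binding. On the same build HLA-DRA lies at chr6:32439887-32445046 and CIITA at chr16:10866206-10943021, and the positions of the array's probes within the genes were not used here.

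The arrays were of like brightness, with medians of 54.7 to 74.8 on the linear MAS5 signal scale. Each CompE array correlated best with its own line's DMSO array (10 of 10). The brightest probe set of HES1, a direct NOTCH target, 203394_s_at, fell by 1.71 ± 0.304 (log2, SE, n = 10 lines, limma adjusted p = 0.0169), lower in 10 of 10 lines. The other HES1 probe sets were not called, with -0.63 (203395_s_at, adjusted p = 0.118) and, at a mean signal of 5.27 after DMSO, 0.31 (203393_at, 0.174). MYC fell from 1815 ± 964 to 629 ± 295 (SD, adjusted p = 0.0215) and NOTCH3 203238_s_at from 780 ± 826 to 384 ± 755 (adjusted p = 0.0144) in the same limma fit. NOTCH3 203237_s_at, at a mean signal of 6.93 after DMSO, had 0.07 (adjusted p = 0.740). These calls held under 17, 14 and 16 of 23 alternatives for HES1, MYC and NOTCH3, with adjusted p up to 0.858. HES1 was lost without HPB-ALL, NOTCH3 without DND41, and MYC without RPMI8402, DND41, ALL-SIL or HPB-ALL. Of 12 T-cell identity genes, among them CD3D, CD2, CD7 and LCK, 10 to 12 had a signal over 32.5 on every array. That signal marks the 40th percentile of the mean signals of all probe sets. Of 9 B-cell genes, 1 to 5 passed it, of 10 myeloid and dendritic genes 0 to 4, and of 8 epithelial and stromal genes 1 to 5. The 3′ over 5′ ratio for ACTB, which grows as RNA degrades, was 1.02 to 3.32 after DMSO and 1.22 to 9.76 after CompE. It was higher after CompE in 9 of 10 lines. Both upper ends belong to KOPTK1, and no other line exceeded 1.77 after DMSO or 1.99 after CompE.

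Most of these genes were dim in most lines. Of the 320 values of the 16 probe sets, 80 lay over a signal of 32.5 and 15 over 100. By their mean, 3 of the 16 probe sets lay over the 40th percentile, and they belong to HLA-DPA1, HLA-DMA and HLA-DMB. Both HLA-DP chains were bright in 1 line only, CCRF-CEM, HLA-DPA1 by 211990_at and 211991_s_at. Its further probe set 213537_at read 55.8 after DMSO and 34.8 after CompE there. HLA-DMB passed 100 in CCRF-CEM and in other lines as well. It read 128 and 101 in KOPTK1 after DMSO and CompE. After CompE it read 160.3 in HPB-ALL, 118 in PF382 and 106 in MOLT3. MAS5 signals near 0 are noisy, signals of different probe sets do not measure RNA on 1 common scale, and in RNA of whole cultures fewer positive cells and less RNA per cell cannot be told apart.

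**Figure D1:**
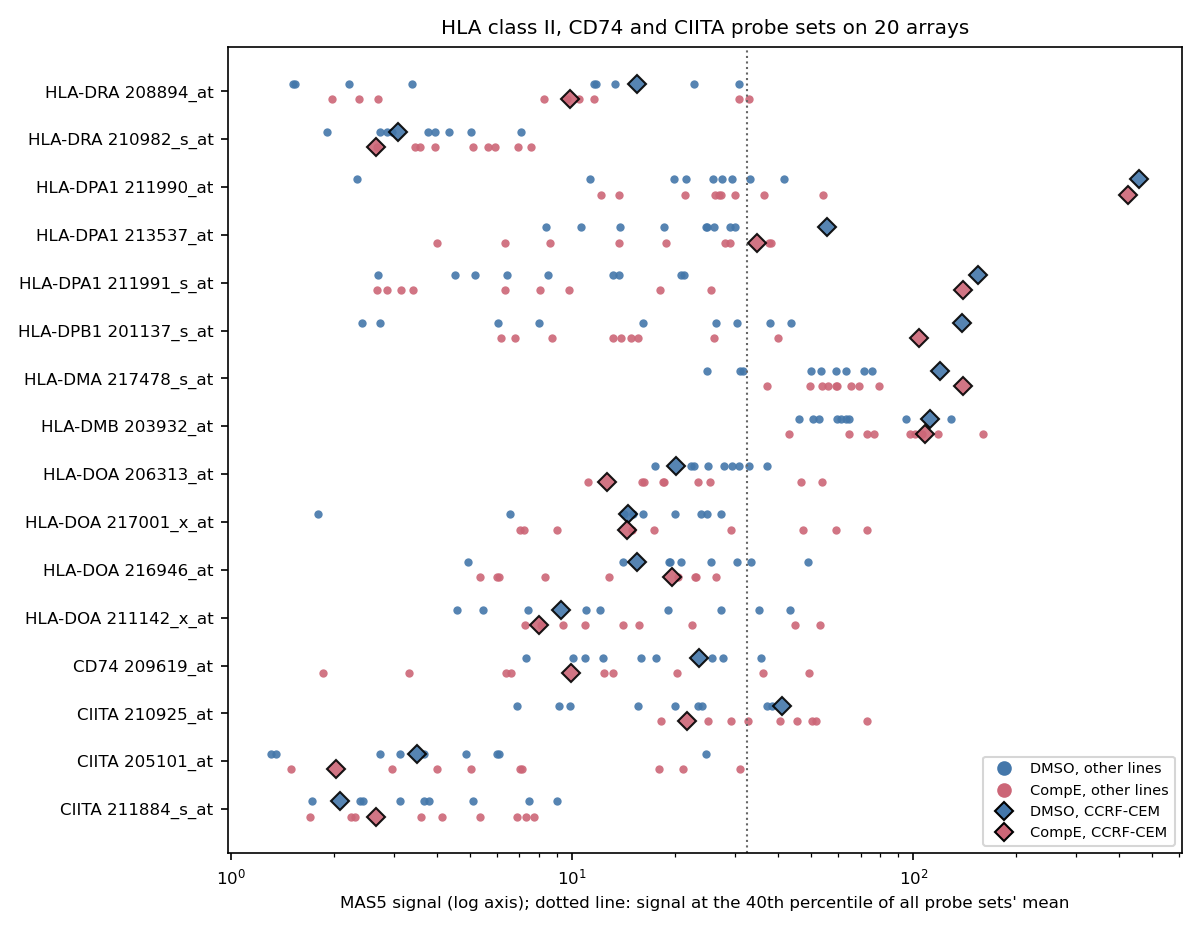
MAS5 signal (x axis, log scale) of the 16 probe sets on 20 arrays, 1 point per array, with DMSO in blue and CompE in red. Diamonds are CCRF-CEM and the dotted line is the signal of 32.5. CCRF-CEM stands to the right of all other arrays for HLA-DPA1 211990_at and 211991_s_at, HLA-DPB1 and HLA-DMA, and for each remaining probe set at least 1 of its arrays lies within them.

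HLA-DPA1, the alpha chain of HLA-DP, had a signal of 457 in CCRF-CEM after DMSO and 427 after CompE by its brightest probe set, 211990_at. The other 9 lines lay between 2.33 and 41.6 after DMSO and between 12.2 and 54.2 after CompE. The highest of those 18 arrays was KOPTK1 after CompE. Both CCRF-CEM arrays were thus at least 7.87 times as bright as any array of another line. On the log2(signal + 16) scale, used for all changes here to damp noise near 0, the gap was 2.66. Among the 22215 probe sets this gap ranked 20 in size for CCRF-CEM.

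The remaining probe sets of HLA-DPA1 differed from each other. Probe set 211991_s_at read 154 and 140 in CCRF-CEM after DMSO and CompE, and 2.68 to 25.5 in the other lines, a gap of 1.91 that ranked 44. Probe set 213537_at read 55.8 and 34.8 in CCRF-CEM, and the other lines reached 38.3 in ALL-SIL after CompE, so that the groups overlapped. Its gap was -0.09, negative because the CCRF-CEM array after CompE lay below that value. Array signals of 213537_at passed 32.5 on 4 of 20 arrays.

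HLA-DPB1, the beta chain that pairs with HLA-DPA1, was also brightest in CCRF-CEM. Its probe set 201137_s_at read 138 after DMSO and 104 after CompE there. The other 9 lines ranged from 2.41 to 43.8 after DMSO and from 6.18 to 39.98 after CompE, with PF382 after DMSO highest. The gap of 1.01 ranked 109. Gaps of 1 or more were found for 111 of 22215 probe sets in CCRF-CEM, 0.5%, and 3 of the 16 class II probe sets were among them. HLA-DPB1 lies at the edge of that count, with a gap of 0.998 after quantile normalization and 0.64 with a pseudocount of 64, alternatives chosen after seeing the data. The count of class II probe sets was then 2, beside 112 and 76 of all. In the other lines 13 to 63 probe sets reached a gap of 1, and none of the 16 did. The gaps are descriptions made with the values known, and no test was run on them.

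**Figure D2:**
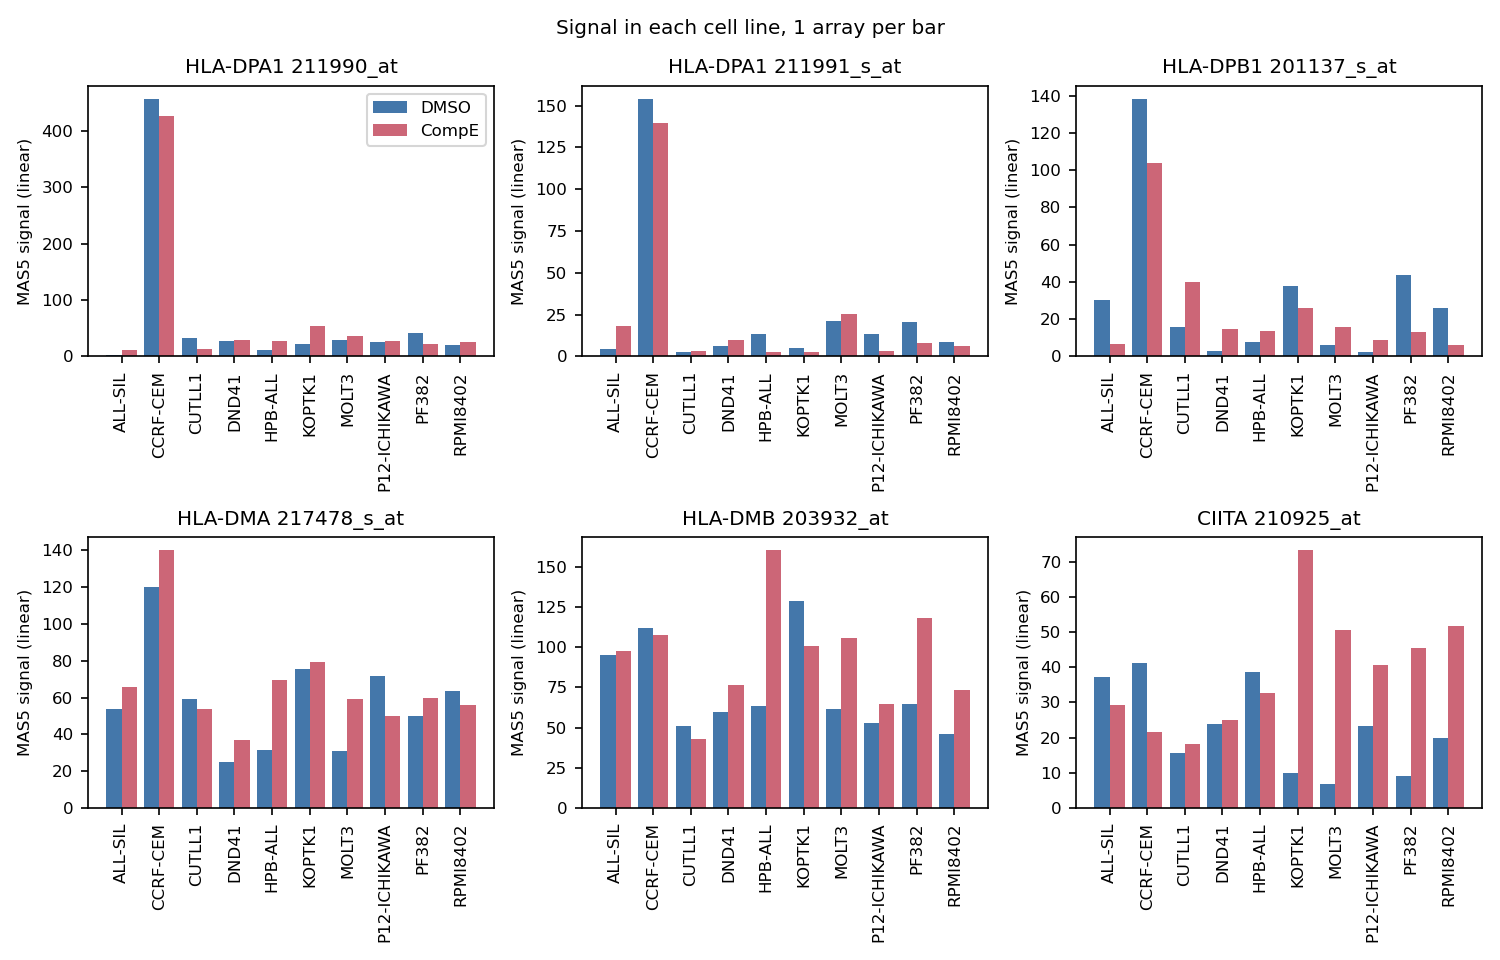
MAS5 signal (y axes, linear, a scale of its own in each panel) of 6 probe sets in each of 10 lines, 1 array per bar, DMSO in blue and CompE in red. HLA-DPA1 by 211990_at and 211991_s_at and HLA-DPB1 stand out in CCRF-CEM under both treatments, and HLA-DMB does not. HLA-DPA1 213537_at has no panel, and its groups overlapped, with 55.8 and 34.8 in CCRF-CEM and up to 38.3 in the other lines. CIITA 210925_at differs between treatments by up to 73.3 against 9.88 in KOPTK1.

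HLA-DMA, the alpha chain of the peptide exchanger HLA-DM, was moderately bright in all lines. Its signal was lowest at 24.8 in DND41, at a median of 56.4 and highest at 120 in CCRF-CEM after DMSO. After CompE the lowest was 37.2 in DND41, the median 59.4 and the highest 140 in CCRF-CEM. No array of another line exceeded 79.3, that of KOPTK1 after CompE, and the gap of CCRF-CEM was 0.51, rank 226. Ordered by their mean over both arrays, CCRF-CEM led KOPTK1 by 0.64 and KOPTK1 led P12-ICHIKAWA by 0.30, both more than the spread within lines of 0.27 (SD). P12-ICHIKAWA, RPMI8402, ALL-SIL, CUTLL1, PF382, HPB-ALL and MOLT3 followed with steps no larger than that spread, and DND41 lay a further 0.35 lower.

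HLA-DMB, the beta chain of HLA-DM, was the only one of the 8 genes over a signal of 32.5 on all 20 arrays. After DMSO it ranged from 46.2 in RPMI8402 over a median of 62.3 to 128 in KOPTK1. After CompE it ranged from 43.1 in CUTLL1 over a median of 99.3 to 160.3 in HPB-ALL. CCRF-CEM was not apart, at 112 and 108. None of the 9 steps between neighbours in the order of line means was larger than the spread within lines of 0.32, so no neighbours in that order were separated.

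HLA-DRA, the alpha chain of HLA-DR, was dim everywhere, CCRF-CEM included. Probe set 208894_at ranged from 1.52 in DND41 over a median of 11.7 to 30.9 in PF382 after DMSO. After CompE it ranged from 1.97 in P12-ICHIKAWA over 9.73 to 32.9 in KOPTK1, and CCRF-CEM read 15.5 and 9.82. Probe set 210982_s_at never exceeded 7.55. The single array over 32.5 was that of KOPTK1 after CompE.

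CD74, the invariant chain, ranged from 7.30 in RPMI8402 to 35.7 in KOPTK1 after DMSO, with a median of 16.8. After CompE it ranged from 1.85 in HPB-ALL to 49.3 in PF382, with a median of 11.2. KOPTK1, highest after DMSO, read 3.33 after CompE, and RPMI8402, lowest after DMSO, read 36.3. CCRF-CEM read 23.5 and 9.92, inside the range of the other lines.

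HLA-DOA, the alpha chain of the HLA-DM inhibitor HLA-DO, was dim by all 4 of its probe sets, with no signal over 73.3. Probe set 206313_at ranged from 17.5 to 37.3 after DMSO and from 11.1 to 53.8 after CompE. Probe set 216946_at ranged from 4.94 to 49.2 and from 5.38 to 26.4. The suffix _x_at marks probe sets with probes shared by other sequences, so 217001_x_at (1.79 to 73.3 over all arrays) and 211142_x_at (4.603 to 53.1) are uncertain. CCRF-CEM read 20.1 and 12.6 by 206313_at, below the median of 24.1 of the other arrays.

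CIITA, the coactivator of all these genes, was dim by its 3 probe sets. Probe set 210925_at ranged from 6.88 in MOLT3 over a median of 21.7 to 41.2 in CCRF-CEM after DMSO. After CompE it ranged from 18.1 in CUTLL1 over a median of 36.7 to 73.3 in KOPTK1. It passed a signal of 32.5 on 9 of 20 arrays, 3 after DMSO (ALL-SIL, CCRF-CEM and HPB-ALL) and 6 after CompE. Probe set 205101_at had a median of 3.59 after DMSO with 24.6 in ALL-SIL, and a median of 6.04 after CompE with 31.1 in PF382. Probe set 211884_s_at never exceeded 9.004. In CCRF-CEM, where HLA-DP was bright, these probe sets read 41.2 and 21.7, 3.50 and 2.02, and 2.08 and 2.66 after DMSO and CompE.

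The share of the variation over 20 arrays that lay between lines was highest for 3 of the 4 HLA-DP probe sets. It was 94.8% for HLA-DPA1 211990_at, 94.1% for 211991_s_at and 61.3% for 213537_at, 81.1% for HLA-DPB1, 80.1% for HLA-DMA and 62.5% for HLA-DMB. It was 48.8% for HLA-DRA 208894_at, 23.2% for CD74 and 14.9% for CIITA 210925_at, beside a median of 70.5% over all probe sets and 54.9% over the dim ones. The DMSO and CompE levels of the 10 lines correlated at r = 0.91 for HLA-DPA1 211990_at, 0.65 for HLA-DPB1 and 0.70 for HLA-DMA. Without CCRF-CEM they were 0.26, 0.044 and 0.38 over 9 lines, so the first values rest on that line. For CD74 and CIITA 210925_at r was -0.58 and -0.60, and for HLA-DRA 208894_at -0.02. The points share lines and arrays, and the correlations are descriptions.

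HLA-DP, HLA-DM and HLA-DO genes lie together on chromosome 6, and the genes around them were read in CCRF-CEM in the same way. Within 250000 bases on either side of HLA-DP, 24 genes had a probe set. In both CCRF-CEM arrays HLA-DPA1, HLA-DPB1 and HLA-DMA were brighter than in all 18 other arrays, and none of the other 21 genes was. HLA-DOA, the measured gene next to HLA-DPA1, read 20.1 and 12.6 in CCRF-CEM and 11.1 to 53.8 elsewhere. BRD2, between HLA-DOA and HLA-DMA, read 1600.1 and 1400 against 435 to 2420, and COL11A2, next to HLA-DPB1, read 85.8 and 63.99 against 61.9 to 166.

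**Figure D3:**
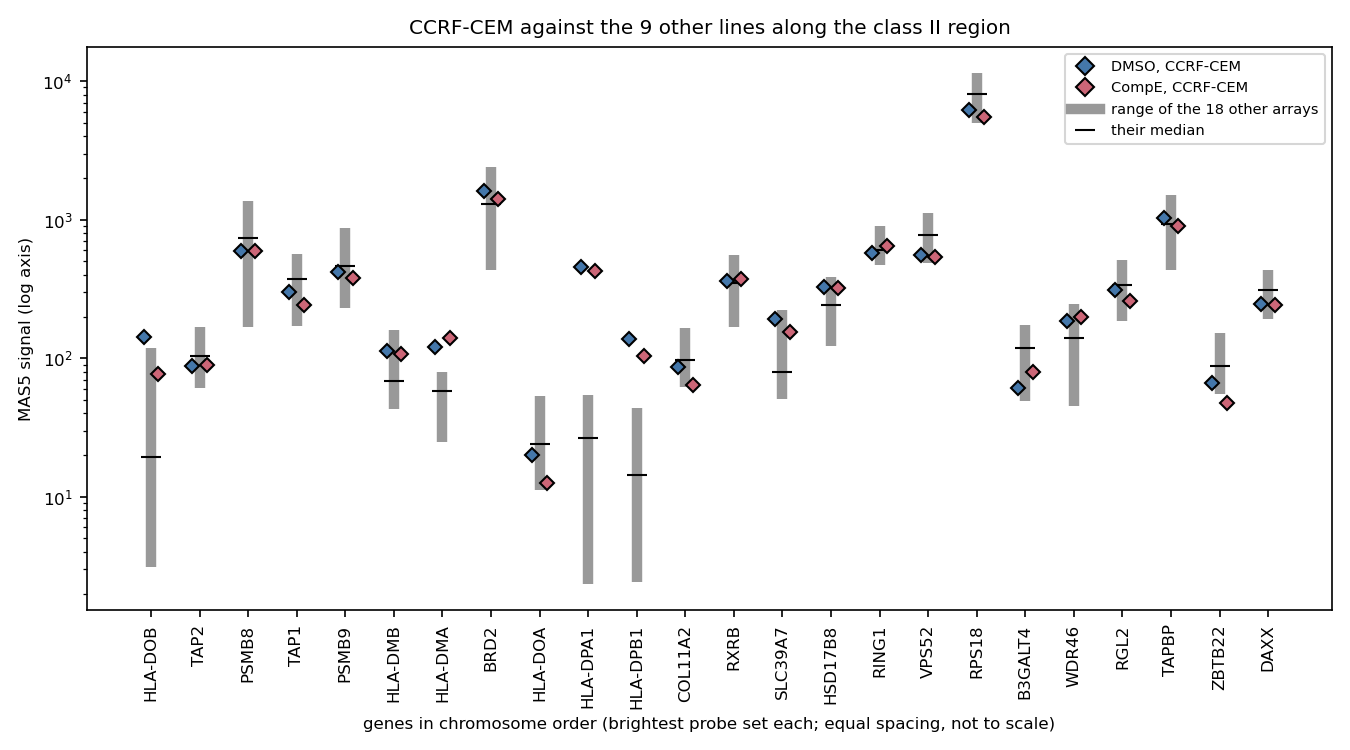
MAS5 signal (y axis, log scale) of 24 genes in their order on chromosome 6, equally spaced, each by its brightest probe set. Diamonds are CCRF-CEM after DMSO (blue) and CompE (red), grey bars the range of the 18 other arrays, and dashes their median. Only HLA-DMA, HLA-DPA1 and HLA-DPB1 have both diamonds above the bar.

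The marker lists of other cells that make class II were read in CCRF-CEM as well. The 9 B-cell genes summed to a signal of 282 and 270 in CCRF-CEM after DMSO and CompE, within the range of 169 to 2705 over all arrays, the upper end being DND41. The 10 myeloid and dendritic genes summed to 217 and 192, within 65.1 to 3850, the upper end being HPB-ALL. The 8 thymic epithelial and stromal genes summed to 251 and 292, within 105 to 423. Of the 16 probe sets of B-cell genes and the 12 of myeloid genes, 0 were brighter in both CCRF-CEM arrays than in all others. Of the 15 of epithelial and stromal genes 1 was, KRT8 209008_x_at, a keratin, at 199 and 191 against at most 137. The 111 of 22215 probe sets with a gap of 1 or more in CCRF-CEM included some of genes that myeloid cells express and that are not on the list. They also included GZMA, JUP, PTPRF and killer-cell immunoglobulin-like receptors. NCF4, a subunit of the phagocyte oxidase, read 215 and 195 by the probe set farthest apart, against at most 11.9 elsewhere, a gap of 2.92. FES, a tyrosine kinase, had a gap of 1.52 and CFD, complement factor D, one of 1.495. These were named after their values were seen, and the share of such genes over all probe sets was not counted. Of the 12 probe sets on the preset myeloid and dendritic list, 0 had a gap of 1 or more in CCRF-CEM. The part of the named genes in the HLA-DP levels was not tested.

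Over the 10 DMSO arrays, the 5 genes most like HLA-DPA1 among 7692 were BAMBI (r = 0.93), TSPO (0.92), CSTA (0.91), SLC2A5 (0.91) and PROCR (0.91). Over the 10 CompE arrays r was 0.86 to 0.91 for the same genes. TSPO read 893 and 928 in CCRF-CEM and 63.6 or less elsewhere, so the likeness is that of 1 line standing apart, and without CCRF-CEM r was -0.33 to 0.54 over the 9 DMSO arrays. HLA-DPA1 was added to this comparison after its values were seen. The genes most like HLA-DRA 208894_at were TOR1A, HTR6, JAG2, RAB3IL1 and CNN2 (r = 0.90 to 0.93), and those most like CIITA 210925_at were LPCAT4, RANBP1, INPP5D, FLOT2 and FBXO41 (r = 0.87 to 0.94). Over the CompE arrays r of those 10 genes was -0.63 to 0.57.

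CompE did not change any of the 16 probe sets past the threshold. With limma on 10 pairs and Benjamini-Hochberg adjustment over all 22215 probe sets, 0 of the 16 passed an adjusted p of 0.05, beside 1.71% of all probe sets (380). Of all probe sets 0.828% passed as higher and 0.882% as lower. The smallest adjusted p among the 16 was 0.235, and 1 of them had an unadjusted p under 0.05, beside 4128 of all. With exact sign-flip permutation tests 0 of the 16 had an unadjusted p under 0.05, beside 3914 of all 22215, and no alternative model called any. In a fit of 7695 genes over the 40th percentile, which calls 7.17% of genes, 0 of the 3 class II genes in it passed. A p that misses the threshold does not show that a level stayed the same, and the intervals give the changes the data allow.

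The changes had no common direction. Of the 16, 10 lay above 0 and 6 below, with a median of 0.043, beside 63.4% above 0 and a median of 0.068 over all probe sets. With quantile-normalized arrays 5 lay above 0, and with median centring 6 did. The DMSO and CompE ranges overlapped for all 16.

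**Figure D4:**
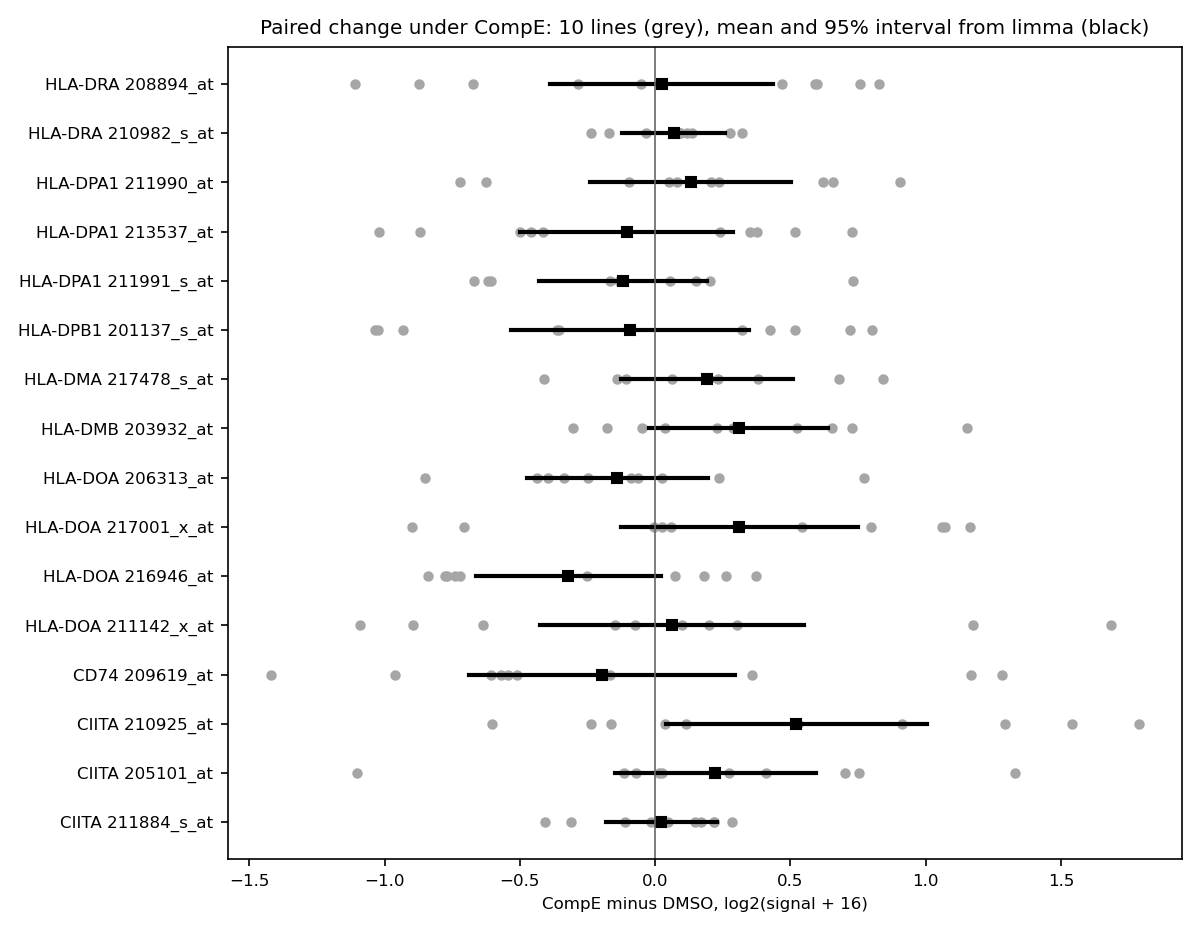
Change under CompE on the log2(signal + 16) scale (x axis) for the 16 probe sets. Grey points are the 10 lines, black squares the mean and black bars the 95% interval from limma. Only the interval of CIITA 210925_at, 0.039 to 1.004, leaves out 0.

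CIITA 210925_at had the largest change, from a mean of 22.6 ± 12.7 (SD, n = 10) after DMSO to 38.9 ± 16.9 after CompE. The paired change was 0.52 ± 0.228 (SE), with an unadjusted p of 0.0360 and an adjusted p of 0.235 in limma, and an exact sign-flip p of 0.0879. It was higher in 7 of 10 lines, most in KOPTK1 (9.88 to 73.3), MOLT3 (6.88 to 50.5) and PF382 (9.12 to 45.5). The ACTB ratio of KOPTK1 was 3.32 and 9.76, and its part in this change was not tested. Without KOPTK1 the change was 0.38. It was lower in CCRF-CEM (41.2 to 21.7), ALL-SIL (37.1 to 29.1) and HPB-ALL (38.5 to 32.7). With the ACTB ratio as a covariate the change was 0.27 (limma adjusted p = 0.642), and with the 10th percentile of signal, higher after CompE in 7 of 10 lines, it was 0.34 (adjusted p = 0.794). The other CIITA probe sets had changes of 0.22 ± 0.175 (205101_at) and 0.02 ± 0.097 (211884_s_at), with adjusted p of 0.517 and 0.919 in limma.

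HLA-DMB went from 73.5 ± 28.2 to 94.8 ± 32.5, a paired change of 0.31 ± 0.156 with a 95% interval of -0.02 to 0.64 (limma adjusted p = 0.302). It was higher in 7 of 10 lines, most in HPB-ALL (63.3 to 160.3), PF382 (64.8 to 118) and MOLT3 (61.3 to 106). Without HPB-ALL the change was 0.21, and adjusted for the 10th percentile of signal it was 0.094 (limma adjusted p = 0.934). HLA-DMA had a change of 0.19 ± 0.150 (adjusted p = 0.510), higher in 7 of 10 lines and also largest in HPB-ALL (31.6 to 69.4).

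The surface chains showed small mean changes made of opposite ones. HLA-DPA1 211990_at had a change of 0.13 ± 0.176 with an interval of -0.24 to 0.50 (limma adjusted p = 0.727), from -0.72 in CUTLL1 to 0.90 in KOPTK1, and -0.10 in CCRF-CEM. Without KOPTK1 it was 0.045. The other HLA-DPA1 probe sets lay below 0, at -0.11 ± 0.186 (213537_at, limma adjusted p = 0.798) and -0.12 ± 0.147 (211991_s_at, 0.700). HLA-DPB1 had -0.09 ± 0.207 (adjusted p = 0.844), from -1.03 in PF382 to 0.80 in CUTLL1, and -0.36 in CCRF-CEM. HLA-DRA had 0.02 ± 0.195 and 0.07 ± 0.090 by its probe sets (adjusted p = 0.959 and 0.719). CD74 had -0.20 ± 0.232 with an interval of -0.69 to 0.29 (limma adjusted p = 0.684), from -1.42 in KOPTK1 to 1.28 in PF382. It was -0.062 without KOPTK1 and -0.36 without PF382.

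The 4 HLA-DOA probe sets disagreed in sign. They had changes of -0.32 ± 0.161 (216946_at), -0.14 ± 0.157 (206313_at), 0.31 ± 0.207 (217001_x_at) and 0.06 ± 0.230 (211142_x_at). Their adjusted p in limma lay between 0.299 and 0.912. DND41 and PF382 read higher after CompE by both _x_at probe sets, at 23.9 to 73.3 and 20.1 to 59.2 by 217001_x_at.

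Further class II chains were dim by their mean signals, with brighter values of HLA-DOB in some lines. HLA-DQA1, HLA-DQB1, HLA-DQB2, HLA-DRB1, HLA-DRB4, HLA-DRB6 and HLA-DOB had 17 probe sets, 0 of them over the 40th percentile and 0 called by limma. In limma 0 of them had an unadjusted p under 0.05, beside 4128 of all 22215 probe sets and 1.71% called. By the exact sign-flip permutation tests 1 had one, HLA-DQB1 209480_at (unadjusted p = 0.0449, higher in 9 of 10 lines), and 0 had an adjusted one. By those tests 3914 of all probe sets had an unadjusted p under 0.05 and 0 an adjusted one. Changes above 0 were found for 15 of the 17, 88.2%, with a median of 0.13, beside 75.6% and 0.12 for all probe sets at or under the 40th percentile. Those with the smallest p were HLA-DQB1 209480_at (0.23, adjusted p = 0.288), HLA-DRB6 217362_x_at (0.36, 0.336) and HLA-DQA1 203290_at (0.23, 0.404). HLA-DOB, the beta chain of HLA-DO, was named after its values were seen. It read 142 and 77.2 in CCRF-CEM after DMSO and CompE, 110 and 104 in MOLT3, 118 and 33.1 in P12-ICHIKAWA, and 52.4 or less in the 7 other lines.

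The factors that bind the X and Y boxes were measured in every line. RFX5, RFXANK and RFXAP form the RFX complex on the X box, CREB1 binds beside it, and NFYA, NFYB and NFYC form NF-Y on the Y box. Their 19 probe sets all lay over the 40th percentile, 0 were called by limma, and their median change was -0.11. An unadjusted p under 0.05 in limma was found for 3 of them, beside 4128 of all 22215 probe sets. By its brightest probe set RFX5 went from 1013 ± 194 to 1105 ± 267, a change of 0.11 ± 0.098 (limma adjusted p = 0.580). RFXANK had -0.11, RFXAP -0.32, NFYA 0.17, NFYB 0.12, NFYC 0.09 and CREB1 -0.05, each with an adjusted p of 0.334 or more. Those with the smallest p were NFYC 211797_s_at (-0.27, adjusted p = 0.198), NFYA 215720_s_at (-0.26, 0.229) and CREB1 204312_x_at (-0.25, 0.237).

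In CCRF-CEM, the line with bright HLA-DP, RFX5 read 1172 and 1264, inside the range of 633 to 1674 over all arrays. CREB1 204313_s_at was lowest there, at 200.2 and 198, with 237 to 809 in the other lines. NFYA 204108_at read 258 after DMSO, the lowest of all arrays, and 383 after CompE, and ALL-SIL also read 383 after CompE.

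**Figure D5:**
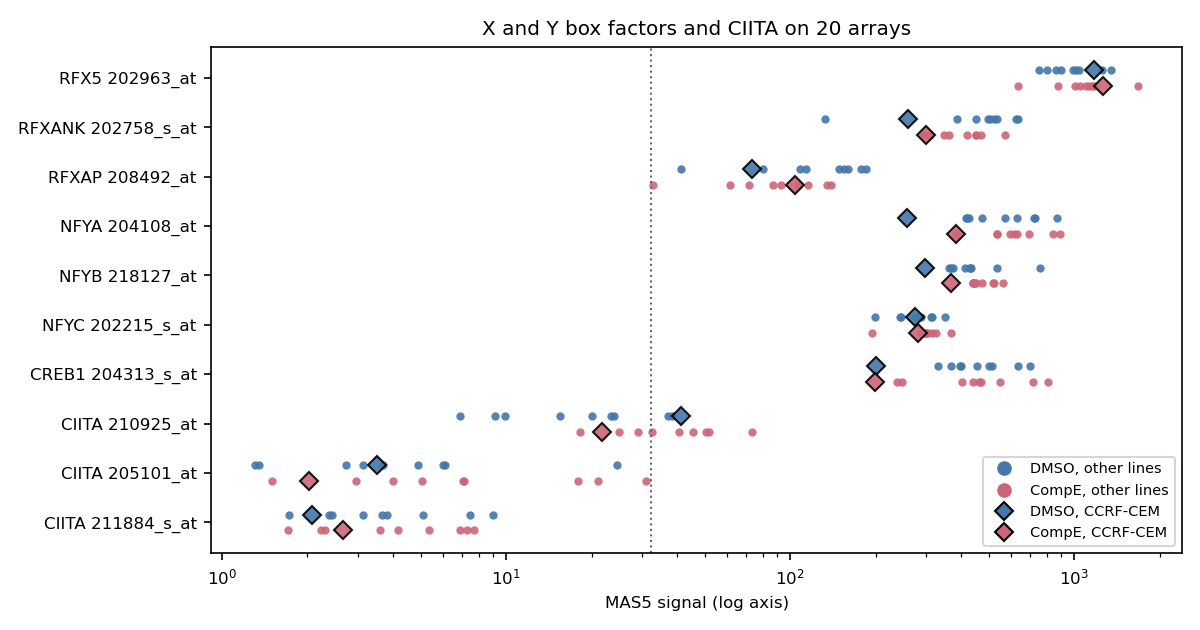
MAS5 signal (x axis, log scale) of the brightest probe set of 7 X and Y box factors and of the 3 CIITA probe sets on 20 arrays, symbols as for the class II genes and a dotted line at 32.5. All factor values lie to the right of the line, and 9 of the 60 CIITA values do. Signals of different probe sets are not on 1 scale of RNA amount.

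The genes that switch CIITA on or off include the interferon gamma receptor, JAK1, IRF1, PRDM1 and SOCS1. Of their 18 probe sets limma called 0, and 5 had an unadjusted p under 0.05, beside 4128 of all 22215. JAK1, a kinase of the receptor, had a change of 0.23 ± 0.070 (adjusted p = 0.0967) and was higher in 9 of 10 lines. IRF1, which acts on the interferon-inducible CIITA promoter, had -0.32 ± 0.104 (adjusted p = 0.117) and was higher in 1 of 10. SOCS1, an inhibitor of the pathway, had 0.36 ± 0.137 by 213337_s_at (adjusted p = 0.178). Its probe sets 210000_s_at, 210001_s_at and 209999_x_at had 0.32, 0.34 and 0.01 (limma adjusted p = 0.191, 0.236 and 0.980). Of 18 probe sets of interferon gamma response genes limma called 0, and 6 had an unadjusted p under 0.05, again beside 4128 of all 22215. By its probe set with the smallest p, WARS1 had a change of -0.48 ± 0.165 (limma adjusted p = 0.139), with IRF1 and SOCS1 beside it. Neither WARS1 probe set, 200628_s_at or 200629_at, was called.

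Of 21 probe sets of coactivators and repressors that work with CIITA, limma called 2 as higher, beside 0.828% of all probe sets. Both belong to NCOA1, a nuclear receptor coactivator with acetyltransferase activity. The further NCOA1 probe sets 209106_at and 209105_at were not called. Probe set 209107_x_at rose from 433 ± 205 to 617 ± 340, by 0.45 ± 0.089 (limma adjusted p = 0.0253), in 10 of 10 lines. Probe set 210249_s_at rose by 0.40 ± 0.091 (limma adjusted p = 0.0394), in 9 of 10. The calls held under 11 of 23 and 7 of 22 alternatives, and the first was lost without ALL-SIL, CUTLL1, DND41 or HPB-ALL. The second was lost without PF382, MOLT3, CCRF-CEM, ALL-SIL, HPB-ALL, DND41 or CUTLL1. Adjusted p reached 0.909 and 0.911. KAT2B, an acetyltransferase, had 0.48 ± 0.144 (limma adjusted p = 0.0949).

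The lysosomal enzymes and inhibitors that prepare peptides and trim CD74 had 14 probe sets, 0 called by limma and 1 with an unadjusted p under 0.05. Of all 22215 probe sets limma called 1.71%, and 4128 of the 22215 had such an unadjusted p. CTSB had a change of 0.27 (limma adjusted p = 0.215), LGMN 0.28 (0.269) and CTSL 0.29 (0.342). The CTSB value is that of its probe set with the smallest p. None of the CTSB probe sets 200839_s_at, 200838_at, 213274_s_at and 213275_x_at was called. The ubiquitin ligases that remove class II from the surface had 2 probe sets and 0 calls by limma, beside the same 1.71% of all. MARCHF8 had 0.28 (limma adjusted p = 0.231) and MARCHF1 0.04 (0.920).

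The MHC class I pathway, which presents peptides to CD8+ T cells and shares the X and Y box factors, was read for comparison. Of its 37 probe sets limma called 1 as higher and 0 as lower, beside 0.828% and 0.882% of all probe sets. The CALR probe sets 214315_x_at and 200935_at were not called. The 1 called was 212953_x_at of CALR, a chaperone of class I folding, which rose from 1099 ± 421 to 1631 ± 621. Its change was 0.55 ± 0.132 (limma adjusted p = 0.0474), and it was higher in 9 of 10 lines. The call held under 6 of 23 alternatives and in 2 of 10 leave-one-out fits, with adjusted p up to 0.858. It was kept only without CUTLL1 or KOPTK1. TAPBP 210294_at had -0.54 (limma adjusted p = 0.0821) and ERAP1 214034_at 0.48 (0.0982). The further probe sets 208829_at of TAPBP and 210385_s_at, 209788_s_at, 209701_at and 214012_at of ERAP1 were not called either. Of 13 probe sets of T-cell activation markers, the state in which human T cells make class II, limma called 0. An unadjusted p under 0.05 was found for 3 of them, beside 4128 of all 22215 probe sets.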

How the data were processed

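The values deposited by the authors are signal intensities on a linear scale, made with MAS5 per the submitters' processing notes, whose version is not given in the sources used here. The mean of an array trimmed by 2% at both ends was 249.8 to 249.95, so the authors' values are scaled to 1 target, and this scaling was kept. Of 22277 probe sets, 62 controls were left out. GEO's platform annotation gave 1 gene for 19070 probe sets, several for 1043, and did not list 2164. Detection calls were not used.

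Signals were analysed as log2(signal + 16), which understates folds of dim probe sets. limma 3.58.1 (R 4.3.3) was fitted to all 20 arrays with cell line as a fixed block and an intensity trend, two-sided, with Benjamini-Hochberg adjustment over 22215 probe sets at 0.05. The residual degrees of freedom were 9 and the prior ones 7.43, and the number of arrays limits the precision. Arrays were paired by the line in their labels. No arrays held identical values. Exact sign-flip permutation tests used 1024 patterns, with a smallest p of 0.00195. The spread within lines is the SD of both arrays of a line around their mean after removal of the mean change. The code was tested on simulated data.

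Named are all probe sets of the 8 genes, up to 3 with the smallest p of each other list, the brightest of each X and Y box factor, the 5 genes most like HLA-DRA and CIITA over DMSO arrays, and HES1, MYC and NOTCH3. Genes and lists were chosen with earlier results of these data known. Some listed genes are not reported here. Alternatives changed the pseudocount, scaling, filter, block, test, covariates and lines.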

Additional observations from a re-analysis of the deposited data

Results flagged for a closer look

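A sample stood far from the other 9 of its group in 5 of 48 groups of 10 tested (level after DMSO, level after CompE and change, for 16 probe sets). Chance alone marks about 1 in 20 single groups. The 48 groups share lines and arrays, so that rate is no yardstick for the count. HLA-DPA1 211990_at was highest in CCRF-CEM at 457 after DMSO, with the next line at 41.6, and at 427 after CompE, with the next at 54.2. HLA-DPA1 211991_s_at was highest in CCRF-CEM at 154 after DMSO (next 21.3) and at 140 after CompE (next 25.5). CIITA 205101_at was highest in ALL-SIL at 24.6 after DMSO (next 6.10). In that line it read 2.96 after CompE.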

How the results depend on the processing

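No alternative called any of the 16 probe sets, and over 23 alternatives the smallest adjusted p was 0.138 in limma. Most of these probe sets are near background, which limits what the arrays can show. Of 342 recomputed changes 310 kept their sign and 32 turned. The largest of the changes that turned was that of HLA-DOA 217001_x_at, 0.31 as reported. HLA-DPA1 211991_s_at, HLA-DMA, HLA-DMB, HLA-DOA 216946_at and CIITA 210925_at never turned. Turned values were as follows. With quantile normalization, HLA-DRA 208894_at was -0.047, 210982_s_at -0.019, HLA-DPA1 211990_at -0.00084, HLA-DOA 211142_x_at -0.065 and CIITA 211884_s_at -0.051. With median centring, in the same order without HLA-DPA1, they were -0.047, -0.0034, -0.0100 and -0.048. With the ACTB ratio as covariate, HLA-DRA 208894_at was -0.11, HLA-DPA1 211990_at -0.064 and CD74 0.13. With the 10th percentile as covariate, HLA-DRA 210982_s_at was -0.0019, HLA-DOA 217001_x_at -0.018, 211142_x_at -0.21, CIITA 205101_at -0.057 and 211884_s_at -0.067. Without the 3 lines with another medium label, HLA-DPA1 213537_at was 0.13, HLA-DOA 206313_at 0.027 and CIITA 211884_s_at -0.025, and with a pseudocount of 1 HLA-DPB1 was 0.030. Leaving out each line in turn gave -0.064 to 0.15 for HLA-DRA 208894_at, -0.19 to 0.012 for HLA-DPB1, -0.12 to 0.19 for HLA-DOA 211142_x_at and -0.0057 to 0.071 for CIITA 211884_s_at. The gap of HLA-DPA1 211990_at in CCRF-CEM was 2.05 with a pseudocount of 64, an alternative chosen after seeing the data.

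The count of all probe sets called, 380 with the cell line as a block, moved more. It was 0 with no replicate block (1230 at an unadjusted p under 0.05), 99 with a random block, 0 with exact sign-flip tests (3914), 0 without the intensity trend (3958), 173 with the ACTB ratio, 0 with the 10th percentile as covariate (1910), 109 without the 3 lines, and 597 among probe sets over the 40th percentile. Leaving out each line gave 53 (without HPB-ALL) to 1098 (without KOPTK1). Between these lay DND41 left out (59), RPMI8402 or ALL-SIL left out (68), CUTLL1 (94), MOLT3 (113), PF382 (133), CCRF-CEM (195) and P12-ICHIKAWA (353). With median centring 63 were higher and 245 lower, beside 184 and 196. The cause was not tested.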

Other observations

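The probe sets whose CCRF-CEM arrays stood farthest above all other lines belonged to SOSTDC1, a secreted BMP antagonist (3103 and 3647 after DMSO and CompE, at most 5.21 elsewhere), and SLC2A5, a fructose transporter (3270 and 3530, at most 56.5). Killer-cell immunoglobulin-like receptors, which natural killer cells use to read MHC class I, were also among them. Of 18 probe sets of 14 KIR genes, 11 had a gap of 1 log2 or more in CCRF-CEM, 61.1%, beside 0.5% of all probe sets, and 0 had one in another line. These genes share sequence, so their probe sets are not independent and single KIR genes are uncertain. They were picked with their values known, and no test was run.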
